A study of Mus musculus with 10 samples.

Results

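Lgals1, Lgals3 and Lgals9 encode galectin-1, galectin-3 and galectin-9, and their RNA is described here in cultured mouse trophoblast stem cells (TSCs), which stand for the trophectoderm, the outer wall of the blastocyst. The 3 genes were found by symbol among 17793 genes of the bulk table and among 18342 to 19616 genes of each single-cell table, and all 3 were listed in all of them, on chromosome 15 (Lgals1), 14 (Lgals3) and 11 (Lgals9) as the gene names give it. They were selected on the values described here, their bulk fold changes and their levels in the single-cell libraries, with earlier results in view, so these values are a description without a test.

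RNA was measured in 10 libraries with CEL-Seq2, which counts transcripts by their ends, and all cells were on a C57BL/6J background. The bulk libraries held TSCs with eGFP knocked in at the coding sequence of CDX2, a transcription factor of the trophoblast stem state, and each library was made from cells sorted for high CDX2 (CDX2-high, 3 libraries) or low CDX2 (CDX2-low, 3 libraries). The single-cell libraries, 1 per group, each came from a plate of 384 wells and from cells with a randomly integrated GFP cassette. They held pTSCs of line pTS1 recovered from blastoids, stem-cell models of the blastocyst (blastoid pTSCs); newly derived pTSCs grown in LT21 medium; F4 TSCs after 6 days without Fgf4, Tgfb and heparin (differentiated TSCs); and F4 TSCs grown in Tx medium. Whether the bulk libraries came from separate cultures is not given, so their spread may be technical, and the clonal relation of the pTSC library to line pTS1 is not given either.

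Galectins bind galactose-containing sugars on glycoproteins. They are made in the cytosol, leave the cell without a signal peptide, and can cross-link receptors, integrins and laminins at the surface or mark damaged vesicles inside the cell. Galectin-1 is of the prototype kind, a small recognition domain that pairs with itself. Galectin-3 is the chimera kind, whose flexible tail lets it form larger assemblies. Galectin-9 is of the tandem kind, in which recognition domains are joined by a linker. Galectin-1 and galectin-3 are known in the trophectoderm of the implanting mouse blastocyst, and galectin-9 is known as an immune regulator at the border of mother and placenta.

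The promoters of Lgals3 and Lgals9 are shown because both genes had lower levels in CDX2-high than in CDX2-low libraries. The sequences are from RefSeq (GRCm38.p6), matched by symbol for 2 of the 3 genes in the table used here, and run 5′ to 3′ on the gene's strand, from 250 bases before the gene's start up to the first exon that GENCODE annotates in the window. The Lgals3 stretch is chr14:47373610-47373812 on the plus strand (203 bases), and the Lgals9 stretch is chr11:78984947-78985174 on the minus strand (228 bases).
Lgals3: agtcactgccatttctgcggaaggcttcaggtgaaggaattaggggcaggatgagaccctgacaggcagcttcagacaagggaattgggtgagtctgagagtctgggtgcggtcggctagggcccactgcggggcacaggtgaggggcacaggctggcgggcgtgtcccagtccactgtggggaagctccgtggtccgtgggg
Lgals9: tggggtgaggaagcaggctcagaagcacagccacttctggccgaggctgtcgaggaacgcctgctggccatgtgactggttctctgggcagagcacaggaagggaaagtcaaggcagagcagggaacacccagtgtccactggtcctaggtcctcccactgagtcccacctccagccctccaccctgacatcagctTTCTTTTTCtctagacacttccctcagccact
Capitals mark a match to the core of the interferon-stimulated response element (ISRE), TTCNNTTTC, which lies at -54 from the start of Lgals9. A further match in the 300-base window of Lgals9, at 16 from the start, is outside the stretch shown. On both strands, 6 motifs were searched, chosen after the sequences were seen, and the ISRE core was shortened by 1 letter after its matches had been seen, which can only raise the share of promoters that hold it. Among 27025 promoters of the same length, 8.57% held the ISRE letters. The window of Lgals3 held the GC box (GGGCGG), which 35.9% of promoters held, at -7 and at 4, both outside the stretch shown. AP-1 (TGANTCA, in 7.93% of promoters), GAS (TTCNNNGAA, 8.47%), TEAD (GGAATG, 14.6%) and E-box (CACGTG, 7.24%) letters had no match in either window. A match is a description of letters and not of binding.

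The bulk libraries set galectin RNA against the CDX2 level of TSCs. Their totals were 157588, 257159 and 272030 counts in CDX2-high libraries and 116659, 138966 and 134978 in CDX2-low libraries, so every CDX2-high library was deeper. The tagged transcript Cdx2-eGFP averaged 786 CPM (counts divided by the library's total and scaled to 1000000) in CDX2-high and 65.7 CPM in CDX2-low libraries, a log2 fold change of 3.53. Of the single-cell wells, those with 2000 or more UMIs (molecular identifiers) from genes other than mitochondrial ones were kept: 257 wells with 2315931 UMIs in the blastoid library (median 8242 a well), 299 with 2437481 in the pTSC library (6844), 318 with 3254559 in the differentiated library (8473) and 318 with 5388767 in the TSC library (15091). The libraries share 148 kept well numbers, which are plate positions. Levels of different genes, and of bulk and single-cell tables, are not set against each other, because transcripts were counted by their ends under annotations that are not given.

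In bulk, Lgals3 and Lgals9 were lower in CDX2-high libraries while Lgals1 was at similar levels in both groups. Lgals3 had 19.04, 58.3 and 14.7 CPM in CDX2-high libraries, against 154, 108 and 215 CPM in CDX2-low libraries. The highest CDX2-high library, number 38, stayed below the lowest CDX2-low library. Lgals3 averaged 30.7 ± 24.0 CPM in CDX2-high and 159 ± 53.6 CPM in CDX2-low libraries (SD, n = 3 each), a log2 fold change of -2.31 (SE 0.44). Without CDX2-high library 38 this log2 fold change was -3.21.

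Lgals9 had 12.7, 19.4 and 3.68 CPM in CDX2-high libraries, against 103, 122 and 81.5 CPM in CDX2-low libraries. The groups did not overlap. Lgals9 averaged 11.9 ± 7.91 CPM in CDX2-high and 102 ± 20.4 CPM in CDX2-low libraries (SD, n = 3 each), a log2 fold change of -3.07 (SE 0.52). It was -3.70 without CDX2-high library 38. The CDX2-high values rest on 2, 5 and 1 counts, and the CDX2-low values on 12, 17 and 11 counts. Lgals3 had 3, 15 and 4 counts in CDX2-high libraries and 18, 15 and 29 in CDX2-low libraries.

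Lgals1 had 203, 264 and 210 CPM in CDX2-high libraries, against 317, 216 and 244 CPM in CDX2-low libraries. The groups overlapped, and the difference was within the spread of either group. Lgals1 averaged 226 ± 33.7 CPM in CDX2-high and 259 ± 52.2 CPM in CDX2-low libraries (SD, n = 3 each), a log2 fold change of -0.19 (SE 0.24).

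All 3 genes passed the filter on low counts, Lgals3 and Lgals9 through the CDX2-low libraries in which they were high. Of the 3, 2 did not overlap between the groups and were lower in CDX2-high libraries, where 11.0% of the 3006 genes tested did the same and 22.7% did not overlap in either direction. Nothing is read from this count, since the genes were chosen with this contrast known. In bulk libraries, fewer cells with a transcript and less RNA per cell cannot be told apart.

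Several marker lists moved with the groups, and their part in the galectin result was not tested. Mural trophectoderm markers (10 of 10 detected) summed to 1561 to 1793 CPM in CDX2-high and 3193 to 3418 CPM in CDX2-low libraries. TSC markers (12 of 12) summed to 2372 to 2856 CPM in CDX2-high and 1072 to 1815 CPM in CDX2-low libraries. The TSC list includes Cdx2, on whose product the cells were sorted, so its sum is not independent of the sort. Markers of later trophoblast and of primitive endoderm were lower in all CDX2-high libraries. Those of the ectoplacental cone (6 of 8, with Tpbpa and Tpbpb at 0) summed to 171 to 296 CPM in CDX2-high and 609 to 911 CPM in CDX2-low libraries. Labyrinth markers (7 of 10, with Synb, Dlx3 and Gcm1 at 0) summed to 163 to 279 CPM in CDX2-high and 386 to 461 CPM in CDX2-low libraries. Trophoblast giant cell markers (4 of 9, with Prl3d1 and Prl3b1 among those at 0) summed to 152 to 209 CPM in CDX2-high and 244 to 334 CPM in CDX2-low libraries. Primitive endoderm markers (7 of 9, with Sox17 and Sox7 at 0) summed to 420 to 437 CPM in CDX2-high and 630 to 814 CPM in CDX2-low libraries. Fibroblast markers (5 of 8) summed to 3.89 to 11.03 CPM in CDX2-high and 21.6 to 51.9 CPM in CDX2-low libraries, with Lum, Col3a1 and Postn at 0. Of these markers 0 had enough counts for a test, so the fibroblast sums rest on few counts. Polar trophectoderm and epiblast sums overlapped between the groups. Macrophage markers (2 of 10), whose sums also overlapped, summed to 0 to 11.03 CPM in CDX2-high and 7.20 to 22.2 CPM in CDX2-low libraries, and the defining genes Ptprc and Adgre1 were at 0.

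**Figure D1:**
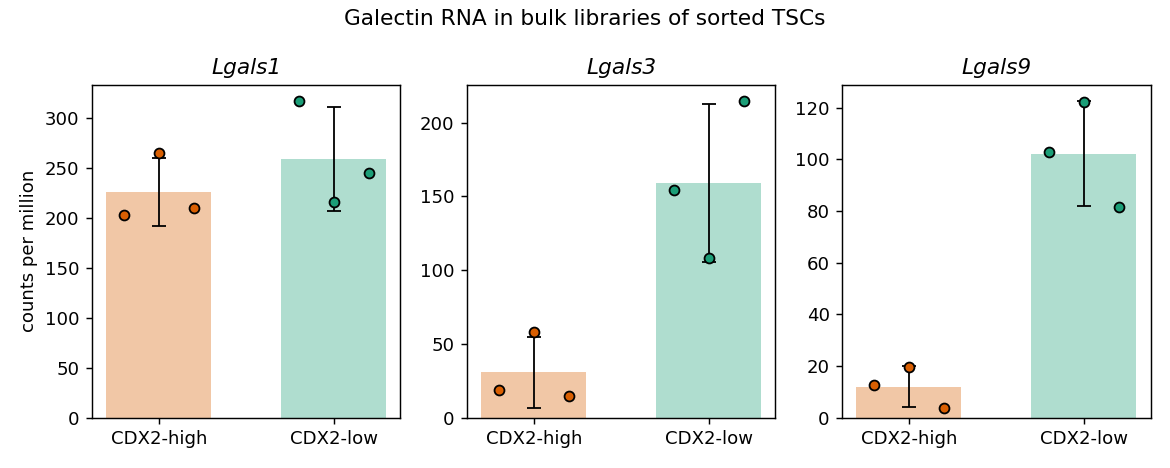
CPM of Lgals1, Lgals3 and Lgals9 in the bulk libraries (points, 3 per group), with the group mean (bar) and SD (error bar), CDX2-high left of CDX2-low and an own vertical scale per gene. The points of Lgals1 overlap between the groups, while all points of Lgals3 and Lgals9 are lower in CDX2-high libraries.

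Single cells compare 4 culture states with 1 library each, so differences have no replicate check, and the intervals below (95%, exact) cover counting error only. The comparisons of differentiated TSCs and of pTSCs share the TSC library, and the comparisons of pTSCs and of blastoid pTSCs share the pTSC library. Of the galectins, Lgals1 was at its highest in blastoid pTSCs, Lgals3 in differentiated TSCs and Lgals9 in TSCs.

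Lgals1 had 1280 CPM of UMIs (1235 to 1327) in blastoid pTSCs, 555 (526 to 586) in pTSCs, 1043 (1009 to 1079) in differentiated TSCs and 808 (784 to 832) in TSCs. In the order blastoid pTSC, differentiated TSC, TSC and pTSC, no neighbours were within counting error of each other. The level in blastoid pTSCs was 2.30-fold that in pTSCs (2.16 to 2.46; log2 ratio 1.20). It was 1.29-fold in differentiated TSCs relative to TSCs (1.23 to 1.35; log2 ratio 0.37) and 1.45-fold lower in pTSCs than in TSCs (1.37 to 1.55; log2 ratio -0.54). The pseudogene Lgals1-ps1, which could take reads of Lgals1, held at most 1 UMI in a library.

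Lgals3 had 6.91 CPM (3.95 to 11.2; 16 UMIs) in blastoid pTSCs, 4.51 (2.25 to 8.07; 11 UMIs) in pTSCs, 28.3 (22.8 to 34.7; 92 UMIs) in differentiated TSCs and 2.23 (1.15 to 3.89; 12 UMIs) in TSCs. Differentiated TSCs stood above the other libraries. Relative to TSCs the level in differentiated TSCs was 12.7-fold (6.93 to 25.5; log2 ratio 3.67). Blastoid pTSCs, pTSCs and TSCs followed in this order, and both neighbouring ratios had intervals that hold 1: 1.53-fold (0.667 to 3.65; log2 ratio 0.61) for blastoid pTSCs over pTSCs and 2.03-fold (0.810 to 5.02; log2 ratio 1.02) for pTSCs over TSCs.

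Lgals9 had 3.45 CPM (1.49 to 6.81; 8 UMIs) in blastoid pTSCs, 0.410 (0.0104 to 2.29; 1 UMI) in pTSCs, 8.30 (5.47 to 12.1; 27 UMIs) in differentiated TSCs and 33.2 (28.5 to 38.5; 179 UMIs) in TSCs. The order was TSC, differentiated TSC, blastoid pTSC and pTSC. Lgals9 was 4.004-fold lower in differentiated TSCs than in TSCs (2.66 to 6.24; log2 ratio -2.00), the direction opposite to that of Lgals3. It was 81.0-fold lower in pTSCs than in TSCs (14.3 to 3216; log2 ratio -6.34), a ratio that rests on 1 UMI. Relative to the same 1 UMI in pTSCs, the level in blastoid pTSCs was 8.42-fold (1.13 to 374; log2 ratio 3.07).

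Of the 3 galectins, 2 differed at least 2-fold between differentiated TSCs and TSCs, as 35.5% of 12158 genes did. Between pTSCs and TSCs 2 did (31.5% of 12070 genes), of which Lgals3 had an interval that holds 1 and fell short of 2-fold in wells of at least 5000 UMIs (log2 ratio 0.33) and with mitochondrial genes in the total (log2 ratio 0.998). Between blastoid pTSCs and pTSCs 2 did (22.8% of 11343 genes). Of these 2, Lgals9 had 8 UMIs in blastoid pTSCs and 1 in pTSCs. That is fewer than the 10 counts required of the 11343 genes, so Lgals9 is not among them. The median log2 ratio of all genes was 0.05, -0.04 and 0.07 in these 3 comparisons, in the same order.

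**Figure D2:**
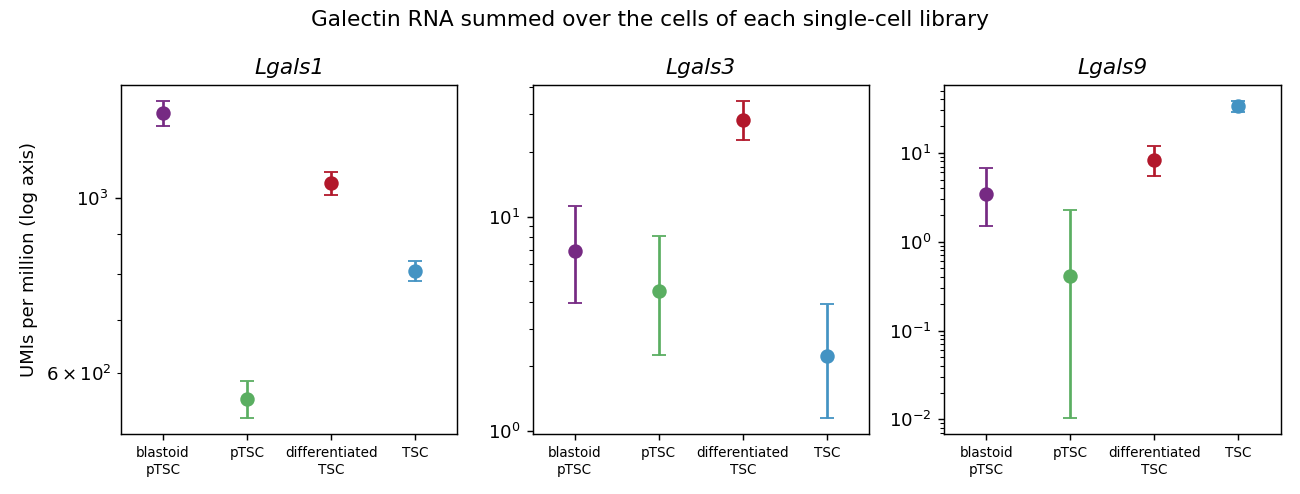
CPM of UMIs of each galectin (log axis, own scale per gene) summed over the kept wells of each single-cell library, with exact 95% intervals for counting error. Lgals1 is highest in blastoid pTSCs at 1280, Lgals3 in differentiated TSCs at 28.3 and Lgals9 in TSCs at 33.2, and the low Lgals9 point of pTSCs stands for 1 UMI.

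Cell by cell, each galectin is described by the share of cells in which it was found. After each cell was thinned once at random to 2000 UMIs, a UMI of Lgals1 was found in 79.0% of blastoid pTSCs (73.5% to 83.8%), 55.5% of pTSCs (49.7% to 61.2%), 71.7% of differentiated TSCs and 71.7% of TSCs (66.4% to 76.6% in both). The shares expected over all such draws were 76.7% of blastoid pTSCs, 55.1% of pTSCs, 75.7% of differentiated TSCs and 69.0% of TSCs, so that the equal shares of differentiated TSCs and TSCs belong to the single draw. In that draw the mean was 2.08 UMIs per cell in differentiated TSCs and 1.51 in TSCs. Without thinning the shares were 95.3% of blastoid pTSCs, 85.3% of pTSCs, 94.7% of differentiated TSCs and 96.2% of TSCs. The variance of Lgals1 UMIs was 2.15 to 2.52 times its mean in the thinned cells, against 1 for pure counting.

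A UMI of Lgals3 was found in 1.95% of thinned blastoid pTSCs, 1.34% of pTSCs, 3.14% of differentiated TSCs and 0.314% of TSCs, and without thinning in 5.45%, 3.68%, 20.4% and 2.83%. Over all draws the expected Lgals3 shares were 1.45%, 1.40%, 5.67% and 0.474% in the same order, so the single draw gave a lower share in differentiated TSCs than is expected. For Lgals9 the thinned shares were 1.17%, 0.334%, 2.20% and 6.92% in the same order, and 3.11%, 0.334%, 6.92% and 22.6% without thinning. Expected over all draws they were 0.762%, 0.144%, 1.80% and 4.999%. Both genes were thus seen in a small part of the thinned cells of each library. These shares are not set against those of Lgals1, because transcripts were counted by their ends under annotations that are not given. The UMIs of Lgals9 in TSCs were uneven: 72 of 318 wells held any, the 10 wells with the most held 50.3% of them, and 1 well held 23. For Lgals3 in differentiated TSCs, 65 wells held the 92 UMIs, at most 4 in a well. Both Lgals3 and Lgals9 were found together in 0 blastoid pTSCs, 0 pTSCs, 5 differentiated TSCs and 3 TSCs.

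**Figure D3:**
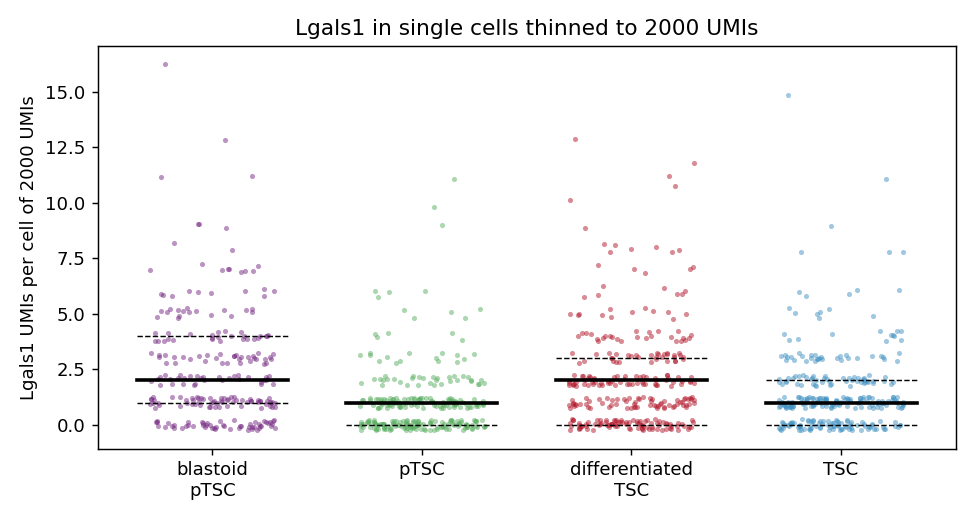
Lgals1 UMIs in each cell after thinning to 2000 UMIs, a point per cell with small random shifts for visibility, with the median (thick line) and quartiles (dashed lines). The median is 2 in blastoid pTSCs and differentiated TSCs and 1 in pTSCs and TSCs, and the highest cell, with 16, is a blastoid pTSC.

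Cells of each library were clustered without any galectin gene, so that galectin levels could be read across clusters as a description. In all 4 libraries the cluster with the highest Lgals1 was not the one led by TSC genes such as Eomes, Sox2, Sox3 or Zic2. In blastoid pTSCs, Lgals1 was at 2094 CPM (2006 to 2186) in cluster 2 (110 cells, led by Ptgs2 and Nrk), and at 660 CPM (617 to 705) in cluster 1 (147 cells, led by Zic5, Sox2 and Sox21). Cluster 2 held 70.8% of the Lgals1 UMIs in 42.8% of the cells. In pTSCs, Lgals1 was at 832 CPM in cluster 2 (97 cells, led by Adam19 and Tns4, with Krt7), and at 423 CPM in cluster 1 (130 cells, with Sox3 and Nr0b1) and 351 CPM in cluster 3 (72 cells, led by Ets1).

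In differentiated TSCs, Lgals1 was at 1592 CPM in cluster 3 (86 cells, led by Serpinb9e and Serpinb9g), 1038 CPM in cluster 2 (91 cells, led by Slc34a2 and Mal) and 734 CPM in the TSC-like cluster 1 (141 cells, with Eomes, Sox2 and Spry4). In TSCs it was at 1779 CPM in cluster 3 (51 cells, led by Gjb2 and Zfp36l3), 685 CPM in cluster 2 (118 cells, led by Ptges and Capn6) and 524 CPM in the TSC-like cluster 1 (149 cells, with Sox3, Zic2 and Nr0b1). Without the cell that held the most Lgals1, TSC cluster 3 was at 1622 CPM. Clusters other than these 2 had fewer than 3 markers of any list among their 10 leading genes and carry no name.

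Lgals9 in TSCs was at 92.9 CPM (74.5 to 114) in cluster 3, 27.2 CPM (20.6 to 35.2) in cluster 2 and 14.5 CPM (10.05 to 20.3) in the TSC-like cluster 1. Cluster 3 thus held 49.2% of the Lgals9 UMIs in 16.04% of the cells, and its level was 70.8 CPM without the cell that held the most. In differentiated TSCs, Lgals9 was at 19.5 CPM (11.2 to 31.7) in cluster 3, 8.01 CPM (3.46 to 15.8) in cluster 2 and 2.09 CPM (0.431 to 6.10) in the TSC-like cluster 1. In pTSC clusters 1 and 3 no Lgals9 UMI was found, which allows levels of up to 2.92 and 5.70 CPM (3 counts over the cluster).

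Lgals3 in differentiated TSCs took another order, with 49.1 CPM (36.3 to 64.9) in cluster 2, 32.9 CPM (21.7 to 47.9) in cluster 3 and 11.1 CPM (6.37 to 18.1) in the TSC-like cluster 1. The intervals of clusters 2 and 3 overlap, and both lie above that of cluster 1. In the other libraries Lgals3 rested on 1 to 12 UMIs in any cluster.

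Marker sums differed between clusters in some libraries more than in others. Only galectin genes were left out of the clustering, so marker genes could help form the clusters over which they are summed. Mural trophectoderm markers summed to 18257 CPM in blastoid cluster 2 and 5594 CPM in cluster 1, and to 8525 CPM in TSC cluster 3, 3686 CPM in cluster 2 and 2756 CPM in cluster 1. TSC markers summed to 798 CPM in blastoid cluster 2 and 3984 CPM in cluster 1, and to 989 CPM in TSC cluster 3, 4093 CPM in cluster 2 and 6000 CPM in cluster 1. Ectoplacental cone markers summed to 6997 CPM in blastoid cluster 2 and 1084 CPM in cluster 1, and to 6940 CPM in TSC cluster 3, 976 CPM in cluster 2 and 707 CPM in cluster 1. In differentiated TSCs, mural markers summed to 10483 CPM in cluster 3, 10561 CPM in cluster 2 and 3935 CPM in cluster 1, and TSC markers to 148, 293 and 2327 CPM in the same order. Ectoplacental cone markers there summed to 9419, 5284 and 1807 CPM in the same order. In pTSCs, TSC markers were at similar sums (4008 CPM in cluster 2, 4941 in cluster 1 and 4632 in cluster 3), while mural markers summed to 9369 CPM in cluster 2, 4616 in cluster 1 and 3453 in cluster 3. Ectoplacental cone markers in pTSCs summed to 1256, 729 and 513 CPM in the same order. Over whole libraries, fibroblast markers summed to 14.2 CPM in blastoid pTSCs, 41.03 in pTSCs, 12.3 in differentiated TSCs and 9.09 in TSCs. Of the 8 fibroblast markers, 3, 3, 6 and 4 were detected in the same order. Macrophage markers summed to 46.6, 15.2, 8.91 and 19.1 CPM in the same order, with 2, 2, 4 and 4 of 10 detected. Adgre1, C1qa, C1qb and Cx3cr1 were at 0 in all 4 libraries, and Ptprc and Lyz2 were also at 0 in blastoid pTSCs, pTSCs and TSCs. The part of these genes in the galectin levels was not tested.

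**Figure D4:**
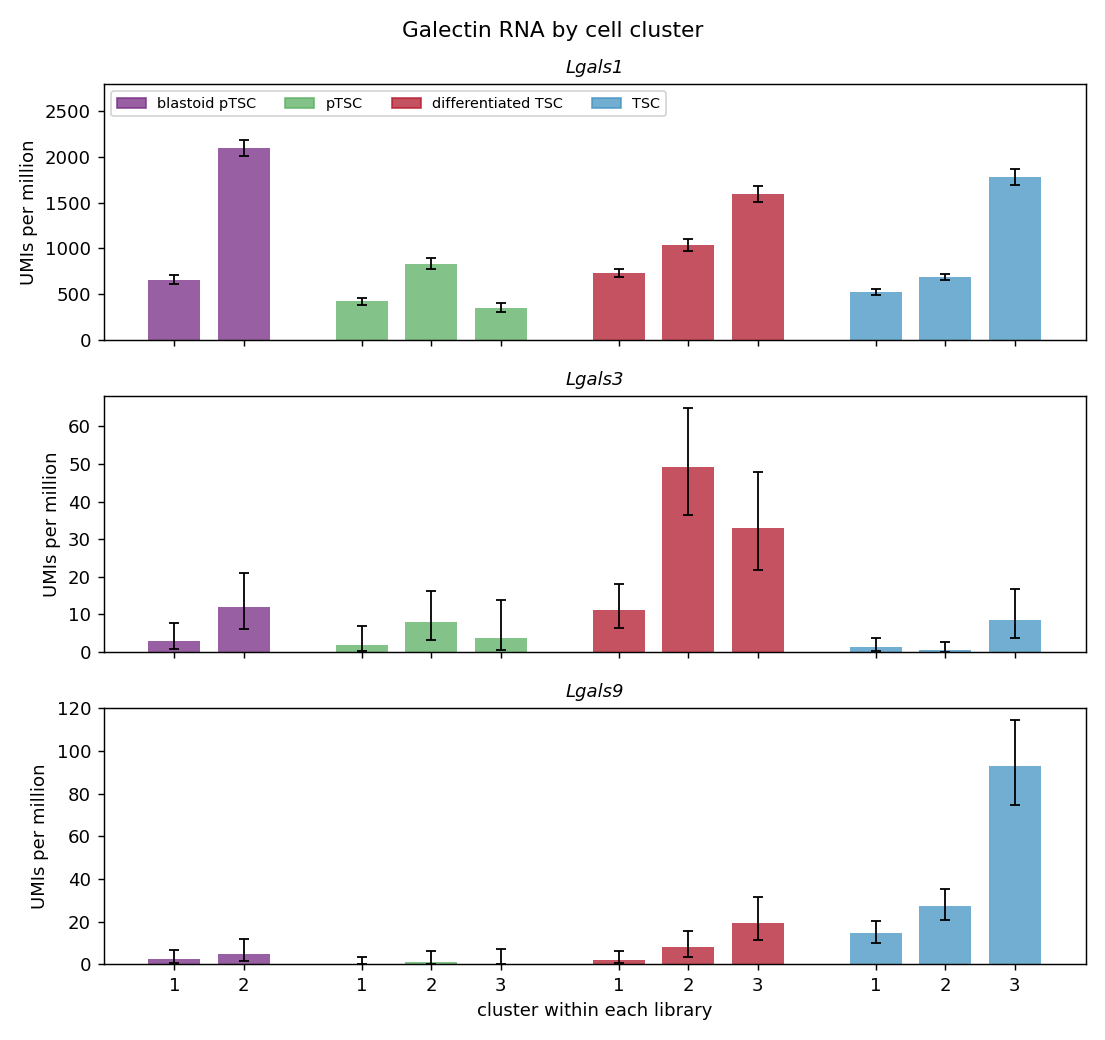
CPM of UMIs of each galectin in the clusters of each single-cell library (bars, from 0), with exact 95% intervals for counting error, for clusters made without galectin genes. Lgals1 reaches 2094 in blastoid cluster 2 and 1779 in TSC cluster 3, Lgals3 is highest in clusters 2 and 3 of differentiated TSCs, and Lgals9 reaches 92.9 in TSC cluster 3.

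Cdx2 itself was seen in part of the wells, which allows the levels to be set beside the bulk sort, with the limit that wells with a Cdx2 UMI were deeper. In the TSC library 96 wells held a Cdx2 UMI (median 21515 UMIs) and 222 did not (median 12812). Lgals9 was at 21.8 CPM (15.8 to 29.2) in TSC wells with a Cdx2 UMI and at 40.1 CPM (33.6 to 47.4) in those without. Lgals1 was at 657 CPM (622 to 693) with and 898 CPM (866 to 931) without. Both were lower in wells with Cdx2, whereas in bulk the Lgals1 groups overlapped, and the part of depth in these differences was not tested.

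Lgals3 had 6 UMIs in TSC wells with Cdx2 and 6 in those without, at 2.97 CPM (1.09 to 6.47) and 1.78 CPM (0.654 to 3.88), and these intervals overlap. Lgals3 was at 5.12 CPM (1.06 to 14.97) with and 7.51 CPM (4.0001 to 12.8) without in blastoid pTSCs, at 1.13 CPM (0.0286 to 6.29; 1 UMI) with and 6.45 CPM (3.09 to 11.9; 10 UMIs) without in pTSCs, and at 8.04 CPM (0.204 to 44.8; 1 UMI) with and 29.1 CPM (23.4 to 35.7) without in differentiated TSCs. The Lgals3 intervals overlap in each of these libraries. Lgals9 was at 3.42 CPM (0.414 to 12.3) with and 3.47 CPM (1.27 to 7.55) without in blastoid pTSCs. In pTSCs it held 0 UMIs with Cdx2, which allows up to 3.39 CPM (3 counts), against 0.645 CPM (0.0163 to 3.59; 1 UMI) without. In differentiated TSCs it held 0 UMIs with Cdx2, which allows up to 24.1 CPM, against 8.63 CPM (5.68 to 12.6; 27 UMIs) without. Both limits lie above the level without Cdx2, so no difference is read from these 0 counts. In blastoid pTSCs, Lgals1 was at 927 CPM (851 to 1009) in 53 wells with Cdx2 and 1400 CPM (1344 to 1457) in 204 without. In pTSCs it was at 534 CPM (487 to 584) in 84 wells with and 568 CPM (531 to 607) in 215 without, and these intervals overlap. Of the differentiated wells 8 held a Cdx2 UMI, with Lgals1 at 699 CPM (560 to 863), against 1057 CPM (1021 to 1094) in 310 without.

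**Figure D5:**
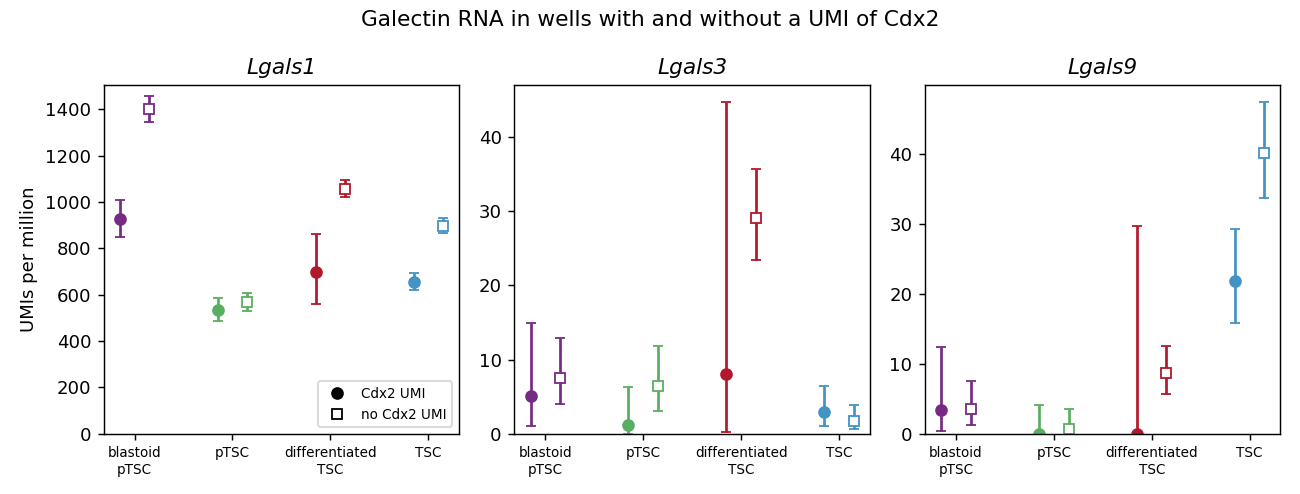
CPM of UMIs of each galectin in wells with a Cdx2 UMI (filled circles) and without one (open squares) in each single-cell library, with exact 95% intervals for counting error. In TSCs Lgals9 is at 21.8 with and 40.1 without, Lgals1 is lower with Cdx2 in TSCs and blastoid pTSCs, and the Lgals3 intervals overlap in TSCs.

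Krt8 was among the 5 genes most like Lgals1 across cells in all 4 libraries, and Krt18 in 3 of them. Likeness was Pearson's r of log-scaled UMIs over the cells of a library, for genes that 20% or more of those cells held. Krt8, a keratin of simple epithelia and trophectoderm, had r = 0.63 with Lgals1 over 257 blastoid pTSCs, 0.34 over 299 pTSCs, 0.43 over 318 differentiated TSCs and 0.50 over 318 TSCs. Its partner Krt18 had 0.58 in blastoid pTSCs, 0.36 in pTSCs and 0.50 in TSCs. The cells of a library share its plate and preparation, and the r of Lgals1 with log total UMIs was 0.13, 0.12, 0.03 and 0.18 in blastoid pTSCs, pTSCs, differentiated TSCs and TSCs. Other genes in the first 5 places included Basp1, Tagln2 and 3830417A13Rik in blastoid pTSCs; Actb and 1600014K23Rik in pTSCs; Pkp2, 3830417A13Rik, Atxn10 and S100a11 in differentiated TSCs; and Ndrg1, Cnn2 and 1600014K23Rik in TSCs.

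For the sparse members the likeness was weak and is no finding. Lgals9 in TSCs was nearest to Nrk (r = 0.33), Dnase1l3 (0.33), Cmpk2 (0.33), Isg15 (0.33) and Parm1 (0.31) over 318 cells. Cmpk2 and Isg15 are known as interferon-induced genes. Lgals3 in differentiated TSCs was nearest to Xbp1 (0.24), Srxn1 (0.24), Prss23 (0.23), Wwtr1 (0.22) and Zbtb24 (0.22) over 318 cells. In the other libraries Lgals3 and Lgals9 had a UMI in fewer than 20% of cells and were not compared.

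The rest of the family was scarce in bulk. Of 8 other galectins, 6 were in the bulk table and 0 had enough counts for a test: Lgals8, which recognises damaged vesicles, had 7 counts over all 6 libraries, the galectin-like Lgalsl had 6, and Lgals4, Lgals7, Lgals12 and Grifin had 0. In the single-cell libraries Lgalsl was at 101 CPM in blastoid pTSCs, 75.5 in pTSCs, 220 in differentiated TSCs and 101 in TSCs, which is 2.18-fold in differentiated TSCs relative to TSCs (1.95 to 2.45). Lgals4 had 13 UMIs in blastoid pTSCs and 3 in pTSCs, a ratio of 4.56 (1.25 to 24.95).

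Among glycoproteins known to bind galectins, such as integrins, laminins and lysosomal membrane proteins, 1 of 10 tested in bulk fell in CDX2-high libraries and 0 rose, where 5.89% of all 3006 genes passed and 2.79% passed as lower. The list's median log2 fold change was -0.47, against -0.01 over all genes tested. The gene that fell was P4hb, a protein disulfide isomerase that galectin-9 is known to bind at the cell surface. P4hb averaged 532 ± 62.1 CPM in CDX2-high and 859 ± 63.9 CPM in CDX2-low libraries (SD, n = 3 each). Its log2 fold change was -0.70 with an SE of 0.20, edgeR's test gave an adjusted p (Benjamini-Hochberg) of 0.0320, and the groups did not overlap. The call was lost without CDX2-high libraries 37, 38 or 39 (adjusted p = 0.184, 0.0821 and 0.160, edgeR). It was also lost without CDX2-low libraries 40 or 42 (0.0793 and 0.0678, edgeR). The same held without the filter on low counts (0.151, edgeR) and after thinning to equal totals (0.0930, edgeR). It was kept with RLE scaling (0.0301, edgeR), with DESeq2 (0.0472) and without CDX2-low library 41 (0.0276, edgeR). The list was chosen with earlier results of these data known.

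Of the N-glycan branching enzymes, which build the sugars that galectins recognise, 4 of 16 were tested in bulk. With edgeR or with DESeq2 0 rose and 0 fell, and the median log2 fold change was -0.18. In edgeR 1 was at an unadjusted p under 0.05, as were 574 of all 3006 genes tested. Of partners of galectins at damaged membranes, 8 of 13 were tested, and 0 rose and 0 fell with either tool, with a median of 0.06. Here too 1 was at an unadjusted p under 0.05 in edgeR, beside the same 574 of 3006 genes. With 4 and 8 members tested, nothing is read from these counts.

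In single cells the members of the same lists were counted by whether they differed at least 2-fold, with no test of a difference between libraries. Of all genes measured, 13.4% were that much higher and 9.42% lower in blastoid pTSCs than in pTSCs, 17.6% higher and 13.9% lower in pTSCs than in TSCs, and 17.5% higher and 18.0% lower in differentiated TSCs than in TSCs. Of 18 measured ligands, 3 were higher and 2 lower in blastoid pTSCs than in pTSCs (median log2 ratio 0.40), 4 higher and 2 lower in pTSCs than in TSCs (-0.31), and 1 higher and 2 lower in differentiated TSCs than in TSCs (0.43). For branching enzymes the counts were 1 higher and 0 lower of 10 (median log2 ratio 0.61), 3 higher and 1 lower of 11 (0.36), and 1 higher and 0 lower of 9 (0.49), in the same order of comparisons. For partners at damaged membranes they were 1 higher and 1 lower of 10 (0.20), 0 higher and 1 lower of 10 (-0.32), and 3 higher and 2 lower of 11 (0.22). With 9 to 18 members measured, nothing is read from these counts about the lists.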

How the data were processed

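Per the labels' protocols, cells were sorted into plates and libraries made with CEL-Seq2. The submitters' processing notes name the aligner STAR 2.5.3a. The counting program, genome build and annotation: not given in the sources used here. The bulk table, as deposited by the authors, holds unscaled whole-number counts for each gene. The single-cell tables, as deposited, hold transcript counts per gene and well, treated here as estimated counts and used without further rounding; whether UMI collisions were corrected is not given.

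The bulk comparison used edgeR 4.0.16 under R 4.3.3 (quasi-likelihood test after filterByExpr and TMM, no covariates, Benjamini-Hochberg adjusted p under 0.05 over all genes tested); CPM used raw library totals. The SE of a log2 fold change is its size over the root of F. Alternatives used DESeq2 1.42.0, RLE scaling, no filter, thinning and libraries left out. Single-cell UMIs were summed per library over wells that held 2000 or more UMIs of non-mitochondrial genes, with exact Poisson and conditional binomial intervals for CPM and ratios, and Clopper-Pearson intervals for shares. Ratios needed 10 or more counts in the pair of libraries, except that the 3 galectins were always given. Intervals cover counting error only. Wells were sorted as single cells and doublets were not called. Clusters used 2000 variable genes, 30 components, 15 neighbours and Leiden at resolution 0.5 (leidenalg 0.10.2), and were named from at least 3 markers among the 10 leading genes. The scripts were tested on simulated data.

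The galectins and gene lists were chosen with earlier results of these data known. Named genes were the members, other galectins, list genes that passed the bulk test, and the 5 most like genes per library, of which 1 is not reported here.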

Additional observations from a re-analysis of the deposited data

How the results depend on the processing

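The bulk log2 fold changes of the galectins kept their direction under the alternatives that gave a value, -0.44 to -0.03 for Lgals1, -3.21 to -1.90 for Lgals3 and -3.70 to -2.57 for Lgals9; after thinning to the smallest total Lgals9 did not pass the filter and had no value. Leaving out each library in turn gave -0.30 to -0.03 for Lgals1 and -3.21 to -1.90 for Lgals3. Genes passing numbered 177, against 91 after thinning, 88 with DESeq2 and 81 to 189 with each library left out, of which 95, 102 and 81 without CDX2-high libraries 37, 38 and 39. Ligands passing numbered 0 without the low-count filter, 0 after thinning and 0 to 1 with each library left out. No paired analysis was possible because the bulk groups share no replicate number. In single cells, the log2 ratio of Lgals1 in differentiated TSCs over TSCs was 0.47 as a mean of per-well fractions and 0.21 with mitochondrial genes in the total, and that in pTSCs over TSCs was -0.65 without the 5% of wells with the most UMIs. With wells of at least 5000 UMIs, the share of pTSCs with a UMI of Lgals9 was 0. An alternative chosen after seeing the data left out the well with the most UMIs of the gene in each library. The cause of these shifts was not tested. In wells of at least 5000 UMIs and without the top well, Lgals9 had no UMI in pTSCs, so its ratios to that library had no value. Lgals3 ratios over pTSCs and over TSCs kept their direction, from 0.06 to 1.20 for blastoid pTSCs over pTSCs and 0.33 to 1.51 for pTSCs over TSCs. Low counts limit Lgals3 and Lgals9, and 1 library per single-cell group limits all ratios.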
